A study of Mus musculus with 24 samples.

Results

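The HOX genes were taken as all genes whose symbol is Hox followed by a cluster letter, a to d, and a paralogue number. Of 55487 genes in the tables, 39 met this rule, namely 11 of the Hoxa cluster on chromosome 6, 10 of Hoxb on chromosome 11, 9 of Hoxc on chromosome 15 and 9 of Hoxd on chromosome 2. They were measured by mRNA sequencing in mouse embryonic fibroblasts (MEFs), cultured cells grown out of the mid-gestation embryo, in 24 libraries that fell into 6 groups of 4. Wild-type (WT) MEFs and MEFs labelled AMPK KO, which lack both catalytic subunits of AMP-activated protein kinase (AMPK, a sensor of cellular energy), were each treated with the solvent DMSO, with MK-8722, a small molecule that activates AMPK directly, or with torin1, which blocks the growth-controlling kinase MTOR. The labels give no dose or time of treatment, and all libraries carried the same batch label. Each genotype was 1 line of cells. The 4 libraries of a WT group came from passages 12, 13, 14 and 15, and those of an AMPK KO group from passages 16, 17, 18 and 19, so that genotype, cell line and passage range cannot be told apart in any comparison between the genotypes. Replicates were cells of 1 line at different passages, and p-values therefore measure the spread between passages of a line, not between embryos.

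HOX genes encode homeodomain transcription factors that give cells their position along the body axis. In each cluster the genes lie in a row, and genes of low paralogue number, at one end, are switched on early and toward the head, while genes of high number act later, in the trunk, the tail and the far parts of the limbs. Fibroblasts keep much of this positional code in culture, so that the set of HOX genes they transcribe reflects the body region they were taken from. Silent stretches of a cluster are held by Polycomb complexes and active stretches by trithorax complexes, and HOX proteins bind DNA together with cofactors of the PBX and MEIS families.

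Counts assigned to genes ranged from 26900240 to 34192685 per library. The RNA of the targeted gene Prkaa1 averaged 80.9 ± 2.00 CPM (counts scaled to a common library total) over the WT libraries under DMSO and 70.9 ± 2.95 CPM over those of AMPK KO (SD, n = 4), so counts per gene did not check the knockout label, and AMPK KO means the libraries labelled so. Of 10 fibroblast markers, the summed level was 11131 to 17125 CPM over the WT libraries and 4787 to 6850 CPM over the AMPK KO libraries, and under DMSO 8 of 9 tested were lower in AMPK KO and 1 was higher. Of the fibroblast markers, Col1a2, a type I collagen chain, averaged 2503 ± 601 CPM in WT but 28.4 ± 12.6 CPM in the other line (SD, n = 4). Of 3 tested neural markers 1 was higher in AMPK KO, 1 lower and 1 not called, with Sox2 at 0.00914 ± 0.0183 CPM in WT against 14.5 ± 0.161 CPM, Ncam1 at 135 ± 19.9 against 96.0 ± 4.84 CPM and Tubb3 at 81.5 ± 10.8 against 89.2 ± 5.54 CPM. Summed markers of epithelium, endothelium, leukocytes, skeletal muscle and pluripotent cells reached at most 8.60 CPM in any library, with Adgre1 at 0 throughout and Myod1, Myog and Myf5 at 0 in AMPK KO, while the 4 neural markers summed to 136 to 286 CPM in WT and 186 to 221 CPM in AMPK KO. Xist, the RNA that coats an inactive X chromosome, was at 281 to 511 CPM over the WT libraries and at 0.0300 to 0.0900 CPM over the AMPK KO libraries. Ddx3y and Eif2s3y, genes of the Y chromosome, held 0 and at most 1 count in a WT library. In the AMPK KO libraries they held 2 to 23 and 4 to 19 counts. The part of these differences in the HOX results was not tested, and in cultures measured in bulk, fewer cells that express a gene and less RNA per cell cannot be told apart.

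The first question was which HOX genes each line transcribed. The WT cells used the Hoxa cluster and Hoxd13, and the AMPK KO cells used the Hoxb cluster from Hoxb2 to Hoxb13 with Hoxa up to Hoxa10. A gene was counted as detected where every library of a genotype held at least 10 counts, a limit chosen after the counts were seen. By this limit 8 genes were detected in both lines (among them Hoxa3, Hoxa4, Hoxa5, Hoxa6, Hoxa7, Hoxa9 and Hoxa10), 3 in WT alone (Hoxa11, Hoxa13 and Hoxd13), 10 in AMPK KO alone (Hoxa2, Hoxb2 to Hoxb9 and Hoxb13) and 18 in neither. The 18 were Hoxb1, all 9 Hoxc genes and 8 of the 9 Hoxd genes. Hoxb1 and Hoxd1, both genes of the anterior end, held no count in any of the 24 libraries, which allows up to 3 counts over each group of 4. No Hoxc gene exceeded 9 counts in a library, and Hoxd8 and Hoxd9 reached at most 15 and 12 counts. Low-count filtering kept 21 of the 39 genes for testing (11 Hoxa, 9 Hoxb, no Hoxc and 1 Hoxd), out of 15828 genes in all. Several of these passed it through the line in which they were high, so counts of called genes among the 21 do not stand for all 39.

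**Figure D1:**
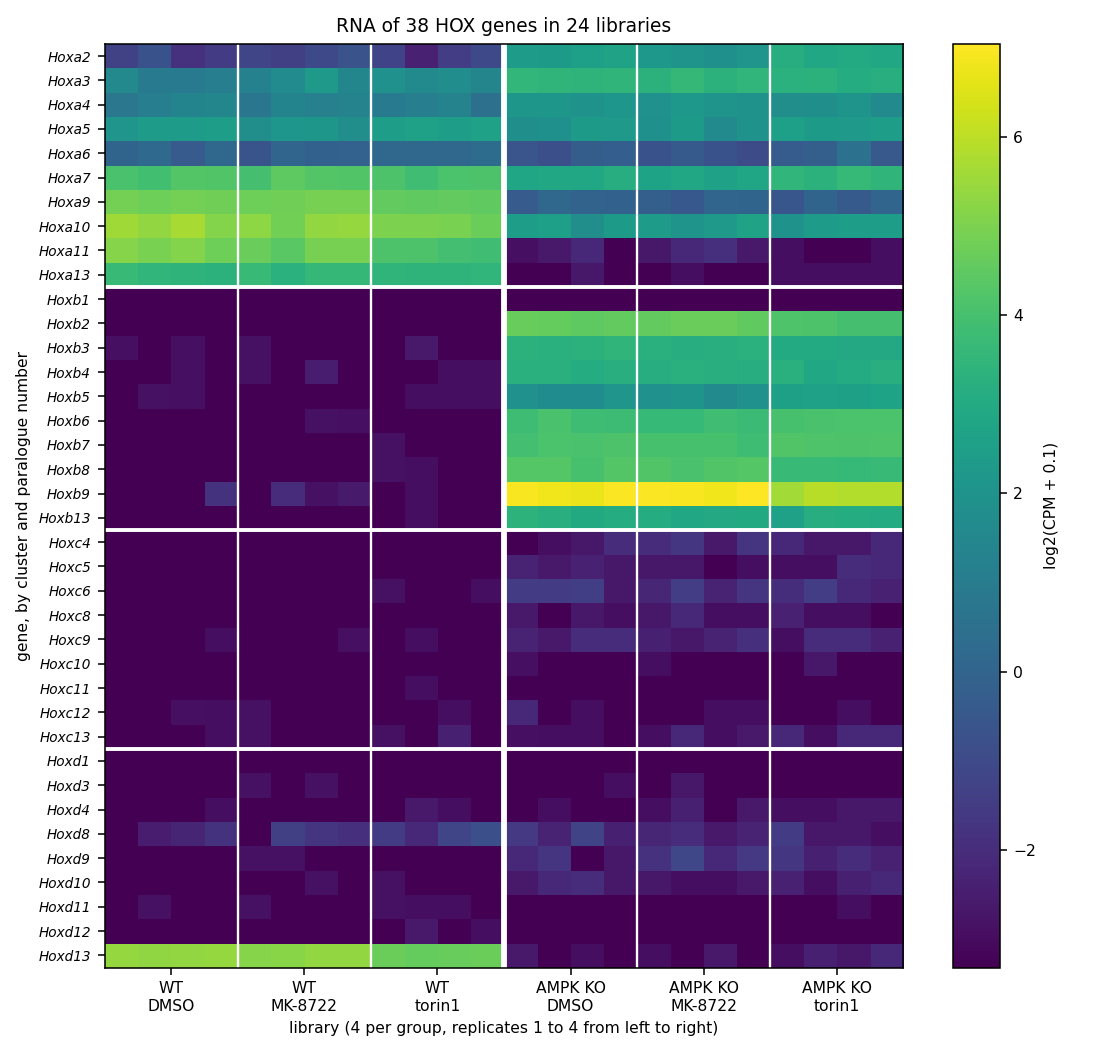
Level of 38 HOX genes (vertical axis, by cluster and paralogue number) in the 24 libraries (horizontal axis, by group), as log2 of CPM plus 0.1. Hoxa11, Hoxa13 and Hoxd13 are bright in the WT libraries alone, the genes Hoxb2 to Hoxb13 in the AMPK KO libraries alone, and the Hoxc genes are dark in both.

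Levels were compared between genes as TPM, which corrects for transcript length and library total. Under DMSO, all HOX genes summed to 160 ± 10.4 TPM in WT and 216 ± 7.27 TPM in AMPK KO cells (SD, n = 4). In WT, Hoxa made up 83.6% ± 1.31 of this sum and Hoxd 16.4% ± 1.27, while Hoxb held 0.0407% ± 0.0279. In AMPK KO, Hoxb made up 82.1% ± 0.567 and Hoxa 17.5% ± 0.610. The leading genes of WT were all of the posterior part of the clusters. Hoxa10, needed for the lumbar vertebrae and the uterus, led at 37.7 ± 6.82 TPM, with Hoxa9 at 34.2 ± 1.40 TPM, and the ranges of these neighbours overlapped. Hoxd13 at 26.0 ± 0.871 TPM and Hoxa11 at 22.2 ± 2.86 TPM followed, each below its predecessor in every library. Hoxa7 (14.3 ± 1.38 TPM) and Hoxa13 (11.5 ± 1.24 TPM) overlapped, and Hoxa2 to Hoxa6 lay between 0.289 TPM (Hoxa2) and 4.19 TPM (Hoxa5). In AMPK KO, Hoxb9, a gene of the thoracic region, stood alone at 77.5 ± 5.35 TPM. Hoxb7 (23.2 ± 1.36 TPM) and Hoxb2 (23.2 ± 0.764 TPM) overlapped, as did Hoxb8 (15.8 ± 1.54 TPM) and Hoxb6 (15.4 ± 1.41 TPM) below them. The remaining detected genes lay between 1.14 TPM (Hoxa9) and 7.05 TPM (Hoxa3), and Hoxa3 and Hoxa7 led the Hoxa cluster with overlapping ranges.

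Levels were also summed by paralogue number across clusters. Paralogues 13 summed to 37.5 ± 1.78 TPM in WT and 6.79 ± 0.676 TPM in AMPK KO under DMSO. Paralogues 11 stood at 22.2 and 0.0423 TPM, and paralogues 10 at 37.7 and 4.81 TPM. Paralogues 9 were present in both, at 34.3 TPM in WT, almost all of it Hoxa9, and at 78.8 TPM in AMPK KO, almost all of it Hoxb9. Paralogues 2 were at 0.289 TPM in WT and 28.5 TPM in AMPK KO, where Hoxb2, a gene of the hindbrain, held most. Paralogues 8 were at 0.0687 and 16.1 TPM, paralogues 6 at 1.86 and 17.0 TPM and paralogues 4 at 2.23 and 10.6 TPM. These sums are descriptions without a test.

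**Figure D2:**
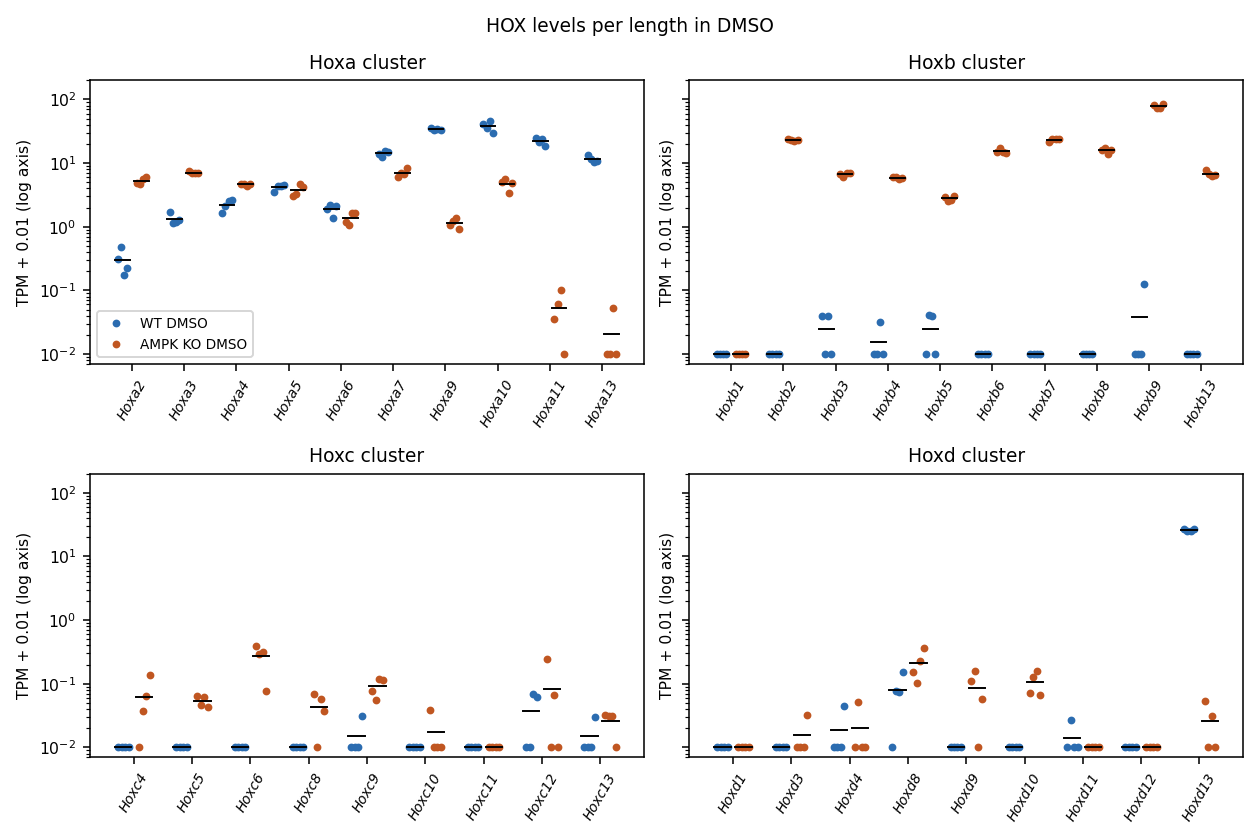
TPM plus 0.01 on a log axis (vertical) of 38 HOX genes (horizontal, by paralogue number) under DMSO, with 1 panel per cluster, WT in blue and AMPK KO in orange. Points are libraries (4 per line) and horizontal lines are means, and a library without counts sits at 0.01. Within Hoxa the lines overlap at Hoxa5 and Hoxa6 and are apart at Hoxa2, Hoxa3, Hoxa4, Hoxa7 and Hoxa9 to Hoxa13, and they are also apart from Hoxb2 to Hoxb13 and at Hoxd13.

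The genotypes were next compared under DMSO, with a gene called where the Benjamini-Hochberg adjusted p of edgeR's quasi-likelihood test over all genes was under 0.05 and the fold change at least 1.2. Of the 21 HOX genes tested, 19 were called, 12 higher and 7 lower in AMPK KO, while 56.9% of all genes tested were called in this comparison, 30.9% as higher and 26% as lower. The groups of all 19 did not overlap, which held for 64% of all genes. The median log2 fold change of the 21 was 2.34, also with genes absent from 1 line set at their bound, and that of all genes was 0.015. Since 13 of the 21 were detected in 1 line alone, the filter on low counts helped to set this median and the count of calls, and neither says how the members stand against other genes. At the posterior end of Hoxa all 4 genes were lower in AMPK KO, as was Hoxd13. Hoxa9 stood at 29.0, 27.2, 29.1 and 27.4 CPM in the WT libraries, and at 0.687, 1.0, 0.885 and 0.840 CPM in the AMPK KO libraries (replicates 1 to 4, as in all such series below unless passages are named). It was 32.8-fold lower in AMPK KO (log2 fold change -5.04, SE 0.102, edgeR adjusted p = 4.8e-22). Hoxa10 was at 47.3, 41.7, 51.2 and 34.3 CPM in WT, against 5.30, 5.70, 3.36 and 4.86 CPM in AMPK KO, 9.08-fold lower (log2 fold change -3.18, SE 0.162, edgeR adjusted p = 1.9e-14). Neither gene's groups overlapped, and both remained detected in AMPK KO.

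Hoxa11, which shapes the forearm and the kidney, was at 35.7, 31.1, 35.2 and 26.6 CPM in WT, and 7 counts were found in the 4 AMPK KO libraries together. Its CPM was 583 times higher in WT (95% counting interval 282 to 1450), and 1010 times higher without AMPK KO DMSO replicate 3. Hoxa13 and Hoxd13, which pattern the digits and the genital tubercle, were likewise near 0 in AMPK KO. Hoxa13 was at 13.0, 11.4, 10.6 and 10.0 CPM in WT against 2 counts in AMPK KO, a ratio of 716 (interval 198 to 5910). Both counts lay in AMPK KO DMSO replicate 3, and without it Hoxa13 was at least 354-fold higher in WT, against a floor of 3 counts over the group. Hoxd13 was at 42.4, 39.8, 41.1 and 42.4 CPM in WT against 3 counts in AMPK KO, a ratio of 1760 (interval 603 to 8550), or 4020 without AMPK KO DMSO replicate 1. It was the 1 gene of its cluster above the detection limit in WT. Its neighbours Hoxd12, Hoxd11 and Hoxd10 held at most 2, 1 and 5 counts in any of the 24 libraries, and Hoxd8 reached 15 counts in WT with torin1. These intervals, and those given for ratios below, cover counting error alone.

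Within the rest of Hoxa the direction changed along the cluster. Hoxa2, which specifies the second pharyngeal arch, was at 0.316, 0.512, 0.180 and 0.251 CPM in WT, against 5.07, 4.95, 5.71 and 6.18 CPM in AMPK KO, and thus 17.3-fold higher (log2 fold change 4.12, SE 0.221, edgeR adjusted p = 5e-14). Hoxa3, needed for the thymus and parathyroid, was higher in AMPK KO by a log2 fold change of 2.34 (SE 0.161) and Hoxa4 by 0.95 (SE 0.161). Hoxa7 was lower by -1.21 (SE 0.103), and for Hoxa2, Hoxa3, Hoxa4 and Hoxa7 the groups did not overlap. Hoxa5 (-0.25, edgeR adjusted p = 0.12) and Hoxa6 (-0.54, edgeR adjusted p = 0.05) were not called, and their groups overlapped. Hoxa6 was called as lower, giving 20 calls, with passage as a block or with DESeq2 size factors. Hoxa3 shares its span on the same strand with Hoxa4, Hoxa5 and Hoxa6, so the split of reads among these 4 genes is less certain than for the others.

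All 9 tested Hoxb genes were higher in AMPK KO. Hoxb9 was at 124, 113, 107 and 127 CPM in AMPK KO, and the 4 WT libraries held 6 counts, all in replicate 4, a ratio of 2270 (95% counting interval 1040 to 6180). Without that library Hoxb9 was at least 3280-fold higher. Hoxb2 was at 24.9, 24.1, 22.1 and 23.6 CPM in AMPK KO and held no count in WT, so it was at least 910-fold higher against a floor of 3 counts over the group. By the same floor Hoxb6, Hoxb7, Hoxb8 and Hoxb13 were at least 562, 643, 715 and 340-fold higher. Hoxb13, the most posterior gene of the cluster and separated from Hoxb9 by a long gap, was at 10.2, 8.97, 7.87 and 8.43 CPM in AMPK KO. Hoxb3, Hoxb4 and Hoxb5 held 1 or 2 counts in WT in all, and their ratios were 583 (interval 161 to 4820), 1050 (187 to 41400) and 207 (56.9 to 1710). Without WT DMSO replicate 3, which held its single count, Hoxb4 was at least 265-fold higher, and without replicate 1 or 3 the ratio of Hoxb3 was 879 or 886, and without replicate 2 or 3 that of Hoxb5 was 316 or 314. Over the whole cluster the WT libraries under DMSO therefore held no more than the 11 counts named here.

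The same contrast was repeated in the drug-treated libraries. With MK-8722, 20 of 21 HOX genes were called, 12 higher and 8 lower in AMPK KO, where 58.9% of all genes were called (31.4% higher and 27.5% lower, with 63.7% not overlapping), and with torin1 19 were called, 12 higher and 7 lower, against 54.6% of all genes (31% higher and 23.6% lower, with 61.8% not overlapping). With MK-8722, Hoxb2 and Hoxb8 were at least 882 and 671-fold higher in AMPK KO, and Hoxd13 and Hoxa13 were lower, with ratios of 1670 (interval 571 to 8090) and 1500 (interval 268 to 59200). Without AMPK KO MK-8722 replicate 3 the former was 3800, and without replicate 2 Hoxa13 was at least 371-fold lower. With torin1, Hoxb9 was higher with a ratio of 7030 (interval 1260 to 278000) and Hoxb2 at least 700-fold higher. Hoxa11, Hoxa13 and Hoxd13 were lower, with ratios of 1060 (interval 294 to 8790), 357 (interval 139 to 1310) and 333 (interval 181 to 695). Without WT torin1 replicate 2 Hoxb9 was at least 1750-fold higher, and without AMPK KO torin1 replicate 1 or 4 the ratio of Hoxa11 was 1600. With MK-8722 Hoxa6 was also called as lower (log2 fold change -0.60, SE 0.254, edgeR adjusted p = 0.04), with overlapping groups, and the call was lost under 10 alternative settings or left-out libraries.

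Promoter sequence was available from RefSeq (build GRCm38.p6) for 22 of the 39 genes, as 24 windows from 250 bases before to 50 after the transcription start, in a table of 32851 promoters. Of Hoxb only Hoxb1, Hoxb4 and Hoxb8 had a window, and of Hoxc only Hoxc4, so the values below are mostly those of Hoxa and Hoxd. The 24 HOX windows held a median of 14.5 CpG dinucleotides, against 7 over all promoters, and 57.7% G or C against 52.7%. Motifs were searched as plain letters on both strands, overlapping matches included. The TATA box TATAAA was found in 4 of 24 HOX windows and 13.6% of all promoters, the CCAAT box CCAAT in 15 and 37.4%, the GC box GGGCGG in 10 and 35.7%, the E-box CACGTG in 5 and 7.15%, and the joint PBX-HOX motif TGATTNAT in 2 and 3.22%. The windows of 4 genes are printed because their genes carry the contrast between the lines, Hoxa13 and Hoxd13 as the posterior genes found in WT alone, Hoxa9 as a gene found in both but far lower in AMPK KO, and Hoxb8 as a Hoxb gene found in AMPK KO alone. They lie at chr6:52260831-52261130 (Hoxa13, minus strand), chr2:74667975-74668274 (Hoxd13, plus strand), chr6:52227321-52227620 (Hoxa9, minus strand) and chr11:96281655-96281954 (Hoxb8, plus strand), each written 5′ to 3′ along its gene, with capitals marking matches to any of the 5 motifs on either strand.
Hoxa13: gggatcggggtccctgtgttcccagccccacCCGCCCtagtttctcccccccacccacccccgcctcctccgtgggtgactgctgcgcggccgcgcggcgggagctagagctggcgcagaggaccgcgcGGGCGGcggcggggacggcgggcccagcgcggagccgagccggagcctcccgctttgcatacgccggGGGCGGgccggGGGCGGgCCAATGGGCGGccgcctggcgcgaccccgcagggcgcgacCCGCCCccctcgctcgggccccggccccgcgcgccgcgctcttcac
Hoxd13: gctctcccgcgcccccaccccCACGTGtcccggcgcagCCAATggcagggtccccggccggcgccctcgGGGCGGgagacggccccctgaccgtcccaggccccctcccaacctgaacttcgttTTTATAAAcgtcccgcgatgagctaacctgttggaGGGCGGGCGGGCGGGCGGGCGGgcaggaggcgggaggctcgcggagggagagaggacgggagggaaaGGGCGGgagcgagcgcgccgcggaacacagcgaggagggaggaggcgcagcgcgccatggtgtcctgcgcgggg
Hoxa9: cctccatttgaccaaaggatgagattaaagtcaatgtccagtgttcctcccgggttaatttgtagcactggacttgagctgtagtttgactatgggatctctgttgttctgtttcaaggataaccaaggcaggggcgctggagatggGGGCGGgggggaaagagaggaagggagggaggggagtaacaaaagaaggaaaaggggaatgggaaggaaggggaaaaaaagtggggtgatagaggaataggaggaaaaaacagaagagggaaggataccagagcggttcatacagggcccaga
Hoxb8: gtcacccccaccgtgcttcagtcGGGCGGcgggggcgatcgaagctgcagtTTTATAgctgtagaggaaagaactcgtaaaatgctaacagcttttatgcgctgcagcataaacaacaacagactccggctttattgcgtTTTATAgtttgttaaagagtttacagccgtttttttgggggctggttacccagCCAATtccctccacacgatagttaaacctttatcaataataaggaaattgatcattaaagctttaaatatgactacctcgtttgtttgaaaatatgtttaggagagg
The Hoxa13 window was 81.0% G or C with 45 CpG dinucleotides and 6 GC boxes, and the Hoxd13 window 74.3% with 37 CpG and 7 GC boxes. The Hoxa9 window held 4 CpG and 1 GC box at 49.7% G or C, and the Hoxb8 window 13 CpG, 2 TATA matches, 1 CCAAT box and 1 GC box at 42.3%. Of the genes not printed, Hoxa11, below the detection limit in AMPK KO like Hoxa13 and Hoxd13, had 15 CpG at 51.0% G or C, and Hoxa5 and Hoxa6, detected in both lines, had 29 and 26 CpG.

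The second question was whether activating AMPK changed the HOX genes. In WT cells, MK-8722 changed 1 of 21 HOX genes by the call rule, against 15.7% of all genes (10% higher and 5.66% lower, with 25.5% not overlapping), and 3 passed an unadjusted p of 0.05. Of the 11 detected in WT, 1 was called and 10 were not. The gene called was Hoxa3. It was at 2.81, 1.87, 1.91 and 2.04 CPM under DMSO and at 2.26, 3.1, 4.75 and 2.63 CPM with MK-8722 (log2 fold change 0.56, SE 0.177, edgeR adjusted p = 0.021). The groups overlapped, and 1 treated library was far above the rest. Without that library, WT MK-8722 replicate 3, the log2 fold change was 0.31 (edgeR adjusted p = 0.15), and the adjusted p was 0.075 without WT DMSO replicate 2 and 0.071 without WT DMSO replicate 3. Hoxa5 (-0.36, edgeR adjusted p = 0.069) and Hoxa11 (-0.27, edgeR adjusted p = 0.094) were not called. With passage as a block within each genotype 3 genes were called, Hoxa3 as higher and Hoxa5 and Hoxa11 as lower. The most abundant WT genes showed log2 fold changes of -0.21 (Hoxa10, SE 0.138), 0.03 (Hoxa9, SE 0.0704) and -0.10 (Hoxd13, SE 0.0800).

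In AMPK KO cells, none of the 21 HOX genes was called with MK-8722 by edgeR, 1 passed an unadjusted p of 0.05, DESeq2 called 1, and 1.56% of all genes were called (0.866% higher and 0.695% lower). The gene concerned was Hoxa2, at 5.07, 4.95, 5.71 and 6.18 CPM under DMSO and 4.47, 4.03, 3.55 and 4.12 CPM with MK-8722 (log2 fold change -0.44, SE 0.157, edgeR adjusted p = 0.14). All treated libraries were below all DMSO libraries, a lack of overlap that 11.7% of all genes showed in either direction, and Hoxa2 was called when passage was a block or when the 8 compared libraries were fitted alone. Hoxb9 showed 0.07 (SE 0.0899) and Hoxb2 0.04 (SE 0.0696). Of the 21 genes, 8 were detected in both lines. For the difference of the MK-8722 effect between genotypes, edgeR called none of the 21 genes, 3 passed an unadjusted p of 0.05, DESeq2 called 1 (Hoxa3), and 12.8% of all genes were called (5.12% higher and 7.66% lower in AMPK KO). With the passage block Hoxa3 and Hoxa7 were called for this difference.

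**Figure D3:**
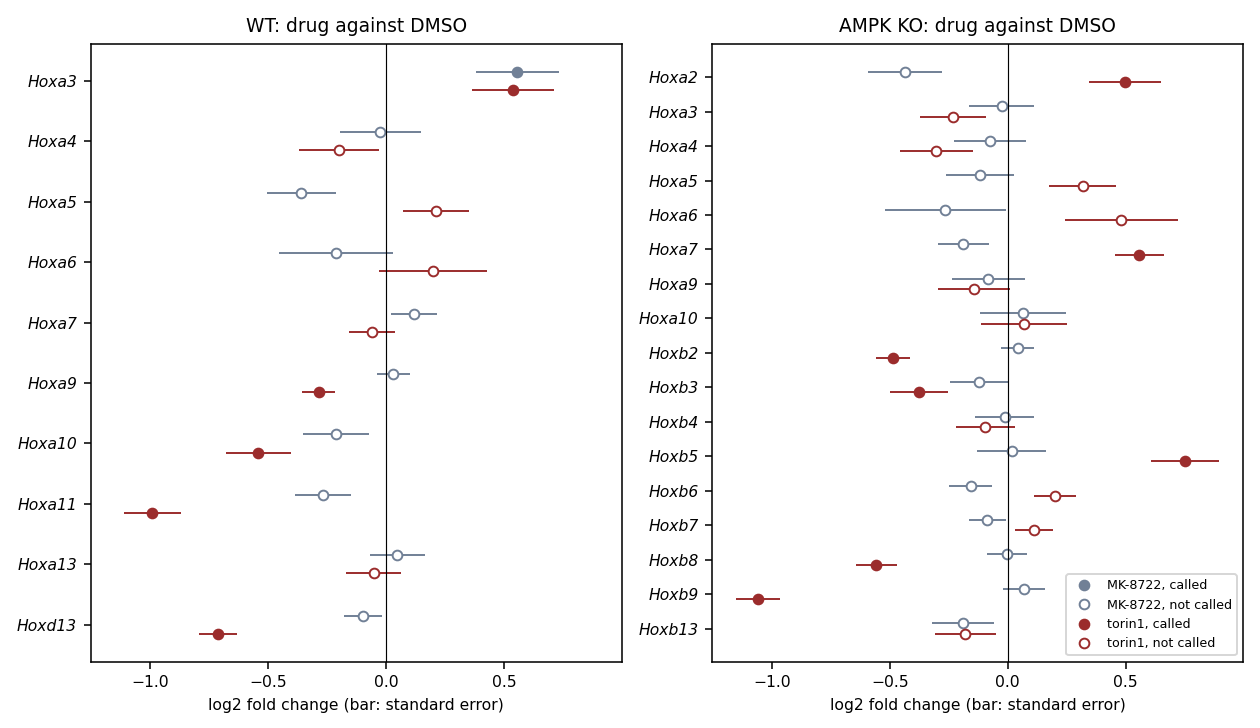
Log2 fold change against DMSO (horizontal axis) of HOX genes (vertical axis) with at least 10 counts in every library of a line, 10 in WT and 17 in AMPK KO, for MK-8722 in grey and torin1 in red. Bars are standard errors of the fit over 4 libraries per group, and filled points passed the call rule. The MK-8722 points lie between -0.44 and 0.56 with 1 filled, Hoxa3 in WT, and the torin1 points spread in both directions.

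The third question was how MTOR inhibition affected the HOX genes. In WT cells torin1 changed 6 of the 21 HOX genes tested, 5 lower and 1 higher, against 47.6% of all genes (26.6% higher and 21.1% lower). Of the 11 detected in WT, 5 were lower, 1 higher and 5 not called, a share near that of all genes, and their median log2 fold change was -0.20 against 0.036 over all genes. Falls were found among the posterior genes, led by Hoxa11 and Hoxd13. Hoxa11 was at 35.7, 31.1, 35.2 and 26.6 CPM under DMSO and at 17.4, 17.5, 15.2 and 14.7 CPM with torin1, 1.99-fold lower (log2 fold change -0.99, SE 0.119, edgeR adjusted p = 1.4e-07). Hoxd13 was at 42.4, 39.8, 41.1 and 42.4 CPM under DMSO and at 25.9, 24.4, 24.4 and 26.4 CPM with torin1 (log2 fold change -0.71, SE 0.0811, edgeR adjusted p = 5.8e-08). For both genes every torin1 library was below every DMSO library, and 51.8% of all genes had groups that did not overlap.

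Hoxa10 was lower by -0.54 (SE 0.138, edgeR adjusted p = 0.0016), at 26.0 to 31.6 CPM with torin1 and 34.3 to 51.2 CPM under DMSO, again without overlap. Hoxa9 was lower by -0.29 (SE 0.0706, edgeR adjusted p = 0.0012), which is 1.22-fold. It fell short of 1.2-fold when libraries were scaled by their size alone (-0.19) or when genes with under 10 counts in any library were removed (-0.25). Hoxa13, next to Hoxa11 in the cluster, showed -0.05 (SE 0.116) and was at 10.5 to 11.3 CPM with torin1 and 10.0 to 13.0 CPM under DMSO. Hoxa3 was higher by 0.54 (SE 0.175, edgeR adjusted p = 0.011), at 3.73, 3.05, 3.25 and 2.53 CPM with torin1, with groups that overlapped. Hoxa13 and Hoxd13 therefore gave unlike values in the same cells, and the difference between these genes was not tested.

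In AMPK KO cells torin1 changed 8 of the 21 HOX genes, 3 higher and 5 lower, against 43.5% of all genes (25.9% higher and 17.6% lower). Of the 18 detected in AMPK KO, 3 were higher, 5 lower and 10 not called, with a median log2 fold change of -0.12 against 0.055 over all genes. Hoxb9, the most abundant HOX gene of these cells, was at 124, 113, 107 and 127 CPM under DMSO and at 49.1, 60.7, 58.2 and 58.3 CPM with torin1, 2.08-fold lower (log2 fold change -1.06, SE 0.0920, edgeR adjusted p = 1.1e-09). Hoxb8 (-0.56), Hoxb2 (-0.49) and Hoxb3 (-0.38) were also lower, and for each of the genes named the groups did not overlap, as for 53.8% of all genes.

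A further 3 genes rose in the same libraries. Hoxb5, a gene of the neural crest that colonises the gut, was at 3.73, 3.17, 3.23 and 4.17 CPM under DMSO and at 5.84, 6.06, 5.86 and 6.35 CPM with torin1 (log2 fold change 0.75, SE 0.144, edgeR adjusted p = 0.00014). Hoxa7, a gene of the trunk, was at 6.97, 7.35, 7.17 and 8.58 CPM under DMSO and at 11.2, 10.1, 12.2 and 10.8 CPM with torin1 (log2 fold change 0.56, SE 0.104, edgeR adjusted p = 7.3e-05). Hoxa2 was higher by 0.50 (edgeR adjusted p = 0.0076). All torin1 libraries were above all DMSO libraries for these genes. Between the falling Hoxb8 and Hoxb9 and the rising Hoxb5, Hoxb6 (0.20, edgeR adjusted p = 0.067) and Hoxb7 (0.11, edgeR adjusted p = 0.24) were not called, nor were Hoxb4 (-0.09) and Hoxb13 (-0.18). Called changes of both directions therefore lay within 1 cluster, in Hoxb as in Hoxa. When libraries were scaled by their size alone, 10 genes were called, 5 higher and 5 lower, with Hoxa5 and Hoxb6 added to the higher ones. Reads of Hoxb5 and Hoxb6 cannot be told apart from those of the antisense RNA Hoxb5os without strand, and the counting strand was not given in the sources used here.

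**Figure D4:**
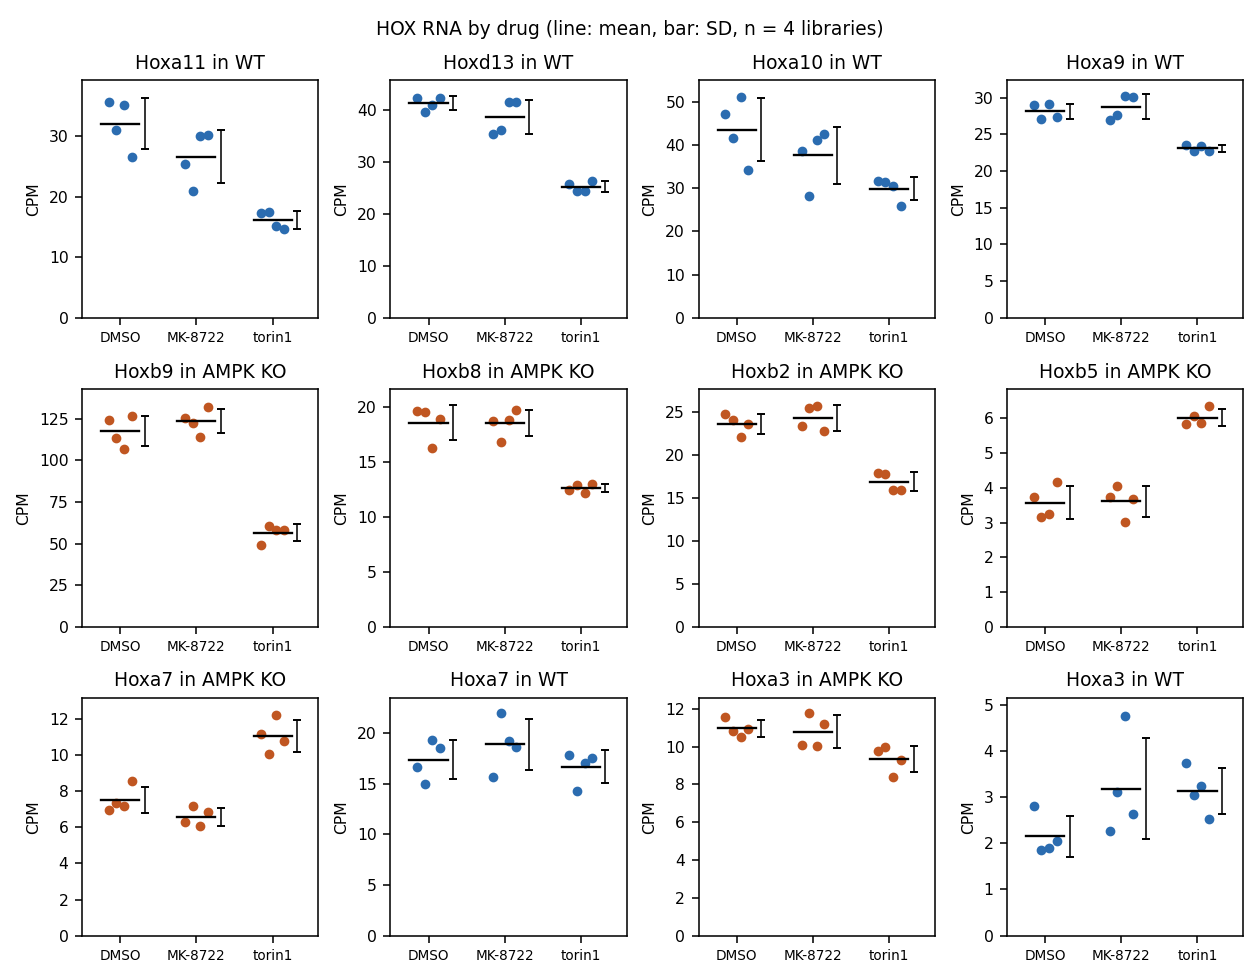
CPM (vertical axis) in DMSO, MK-8722 and torin1 (horizontal axis) for HOX genes described in the drug comparisons, 1 gene and line per panel, with points for libraries (4 per group), a line for the mean and bars for 1 SD. With torin1 Hoxa11 and Hoxd13 drop in WT and Hoxb9 drops in AMPK KO, while Hoxb5 and Hoxa7 rise in AMPK KO.

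Whether torin1 acted differently in the lines was tested as an interaction, which called 2 of the 21 HOX genes, against 7.07% of all genes (4.15% higher and 2.92% lower in AMPK KO), and 4 passed an unadjusted p of 0.05. Both called genes were among the 8 detected in both lines. Hoxa7 was at 14.3 to 17.8 CPM with torin1 and 15.0 to 19.3 CPM under DMSO in WT (log2 fold change -0.06, SE 0.0973), and its torin1 effect was larger in AMPK KO by 0.62 (SE 0.142, edgeR adjusted p = 0.0076). Hoxa3 was higher with torin1 in WT and showed -0.23 (SE 0.139, edgeR adjusted p = 0.16) in AMPK KO, where it was at 11.6, 10.8, 10.5 and 10.95 CPM under DMSO and 9.74, 9.96, 8.39 and 9.28 CPM with torin1. Its effect in AMPK KO minus that in WT was -0.77 (SE 0.224, edgeR adjusted p = 0.03). The adjusted p of Hoxa3 rose to 0.068 without WT DMSO replicate 3, 0.065 without WT DMSO replicate 2, 0.056 without WT DMSO replicate 4 or AMPK KO DMSO replicate 1, 0.054 without AMPK KO torin1 replicate 3 and 0.05 without WT torin1 replicate 1. With passage as a block 4 genes were called, Hoxa10 and Hoxd13 being added, and the latter rests on at most 4 counts per library in AMPK KO.

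Passage varied within every group, so the slope of each HOX gene over passage number was fitted within each genotype and called at an adjusted p under 0.05. In WT, 2 of the 21 genes were called, both rising with passage, and 4.42% of all genes were called (1.78% rising and 2.63% falling). Hoxa10 was at 34.3, 41.7, 47.3 and 51.2 CPM at passages 12, 13, 14 and 15 under DMSO, at 28.1, 38.7, 42.5 and 41.1 CPM with MK-8722 and at 26.0, 31.5, 30.6 and 31.6 CPM with torin1. Its slope was 0.15 per passage on the log2 scale (SE 0.0340, edgeR adjusted p = 0.016). Hoxa11 was at 26.6, 31.1, 35.7 and 35.2 CPM at the same passages under DMSO, with a slope of 0.12 (SE 0.0321, edgeR adjusted p = 0.029). For both genes passage 12 was the lowest in each of the 3 treatments. The adjusted p of Hoxa10 was 0.093 without WT DMSO replicate 4 and 0.1 without WT MK-8722 replicate 2, both of passage 12. The call of Hoxa11 was lost without any 1 of 6 libraries (WT DMSO replicates 3 and 4, WT MK-8722 replicates 2, 3 and 4 and WT torin1 replicate 4), with adjusted p of 0.051 to 0.15. In AMPK KO, edgeR called none of the 21 genes, 3 passed an unadjusted p of 0.05, DESeq2 called 0 and 0.145% of all genes were called (0.0569% rising and 0.0885% falling). There Hoxa10 had a slope of 0.15 (SE 0.0457, edgeR adjusted p = 0.22).

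**Figure D5:**
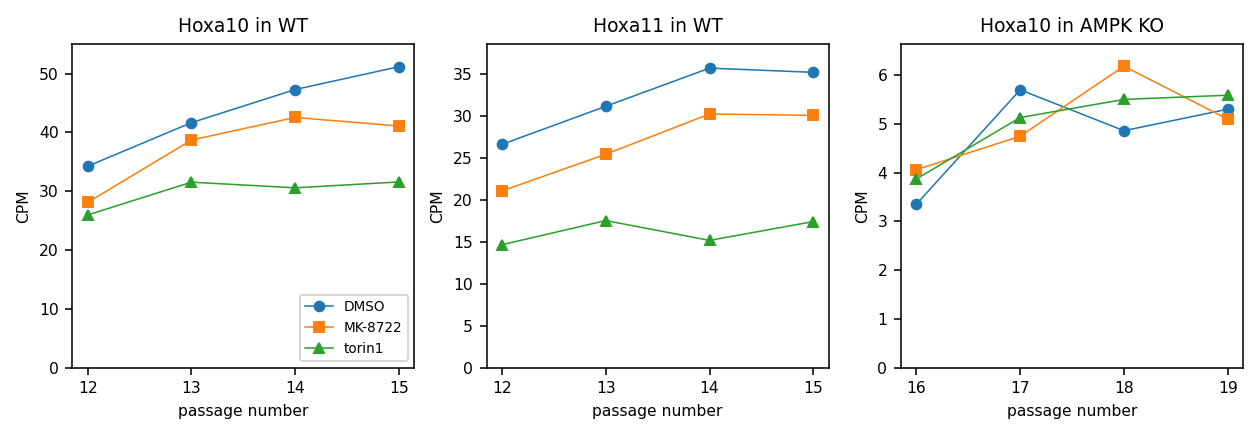
CPM (vertical axis) against passage number (horizontal axis) for Hoxa10 and Hoxa11 in WT and Hoxa10 in AMPK KO, with 1 point per library, colours and symbols for DMSO, MK-8722 and torin1, and thin lines joining the libraries of a treatment. In WT the passage 12 points are the lowest of each treatment.

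Long non-coding RNAs of the clusters were counted next. Of 7 tested, 5 were higher and 2 lower in AMPK KO under DMSO, where 56.9% of all genes were called. The 7 were those of 12 in the data that passed the low-count filter. Gm53, Hoxb3os and Hoxa11os passed it through the line in which they were high, so this count of calls does not stand for all 12. Gm53 and Hoxb3os, both in the Hoxb cluster, held no count in the WT libraries under DMSO and were at 23.7 ± 1.12 and 8.03 ± 0.573 CPM in AMPK KO (SD, n = 4), at least 914 and 309-fold higher. Hoxa11os, transcribed antisense to Hoxa11, was at 27.8 ± 3.51 CPM in WT against 5 counts in AMPK KO, a ratio of 706 (95% counting interval 302 to 2180) or, without AMPK KO DMSO replicate 2, 1340, and Hottip, at the Hoxa13 end of Hoxa, at 0.264 ± 0.128 CPM in WT with no count in AMPK KO. With torin1, 1 of the 7 was called in WT, which is 14.3% against 47.6% of all genes. The RNA called was Hotairm1, at 2.98, 3.0, 3.35 and 2.73 CPM under DMSO and at 1.09, 1.17, 0.975 and 1.09 CPM with torin1 (log2 fold change -1.48, SE 0.146, edgeR adjusted p = 6.2e-09). In AMPK KO it was lower by -1.30 (SE 0.127, edgeR adjusted p = 7.1e-09), while Hoxb3os (0.50) and Hoxaas2 (0.46) were higher. There 42.9% of the list was called, against 43.5% of all genes. Reads of Hoxa11 and Hoxa11os, and of Hoxb2, Hoxb3 and Hoxb3os, cannot be told apart where these overlap without strand.

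Genes that flank the clusters were also counted. Of 17 tested, 6 were higher and 3 lower in AMPK KO under DMSO, close to the share of all genes. Evx2, a homeobox gene next to Hoxd13, was at 1.12 ± 0.136 CPM in WT against 1 count in AMPK KO, a ratio of 143 (interval 25.1 to 5670) that became at least 35.1 without AMPK KO DMSO replicate 4, and Lnpk, beyond it, was lower by -0.43. The largest rises were those of Ttll6 beside Hoxb (4.42, SE 0.773, on at most 1 count per WT library) and Snx10 beside Hoxa (1.15, SE 0.103). With torin1 in WT, 2 were higher and 5 lower (41.2% called, against 47.6% of all genes), led by Calcoco1 (1.89) and Hnrnpa1 (0.38) among the former and Snx11 (-0.90) and Cbx1 (-0.72) among the latter.

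Of the 9 HOX cofactors, 3 were higher and 1 lower in AMPK KO under DMSO, which is 44.4% called against 56.9% of all genes. Pknox2 (1.99, SE 0.155) and Meis1 (1.59, SE 0.0905) rose most. With torin1 in WT, 2 were higher, among them Meis1 (0.38), and none was lower, which is 22.2% called against 47.6% of all genes. Of 34 tested Polycomb and trithorax regulators, 7 were higher and 12 lower in AMPK KO, which is 55.9% called, near the share of all genes. Cbx7, a chromodomain subunit of Polycomb repressive complex 1, averaged 5.66 ± 0.339 CPM in WT, against 44.0 ± 1.73 CPM in AMPK KO (SD over 4 libraries, log2 fold change 2.96, SE 0.0894, edgeR adjusted p = 9.3e-19), and Phf19 was higher by 1.10, while Bmi1, another subunit of that complex, was lower by -0.94 and Kdm6a, which removes the Polycomb mark, by -0.68. With torin1 in WT, 12 were higher and 11 lower, which is 67.6% called against 47.6% of all genes. Ezh1, a methyltransferase of Polycomb repressive complex 2 (1.07), and Phf19 (0.72) rose most, and Dot1l, a methyltransferase found at active HOX genes (-0.99), and Kdm6b (-0.67) fell most.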

How the data were processed

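The authors sequenced mRNA libraries in pairs of reads and processed them with nf-core/rnaseq, using STAR and Salmon on mouse build GRCm38, and deposited for each library the estimated counts and TPM values that Salmon gave per transcript and gene. The strand setting of the counting was not given in the sources used here. Estimated counts per gene were rounded and tested with edgeR 4.0.16 in R 4.3.3 (quasi-likelihood test, TMM scaling, low-count filtering by filterByExpr, 6 group means over all 24 libraries). Genes were called at a Benjamini-Hochberg adjusted p under 0.05 over all genes and a fold change of at least 1.2, passage slopes by the adjusted p alone. Levels between genes were compared as the deposited TPM. Counting intervals of ratios were exact and at 95%. The scripts were tested on simulated data. Alternatives were other scalings and filters, DESeq2 1.42.0, a replicate or passage block, the compared libraries alone, a stricter fold and leaving out each library. The HOX genes, the lists of HOX cofactors, flanking genes, cluster long non-coding RNAs, Polycomb and trithorax regulators and cell type markers, and the tests were chosen with earlier results of these data known. Genes named with values were, by cluster, the highest in each genotype under DMSO, the largest called rise and fall between the genotypes and the tested member of highest paralogue number, and in every other comparison and list the 2 largest called rises and falls. Other HOX genes given with values were chosen after these were seen. Same-numbered replicates of different groups had a median correlation of 0.02, with 5 of 60 pairs over 0.1, so replicate numbers were not taken to pair libraries. Libraries of the same passage and genotype in different groups had a median correlation of 0.13, with 15 of 24 pairs over 0.1. Those of other passages in the same genotype had -0.04, with 0 of 72 over 0.1. The main fit did not pair libraries by passage, and a passage block was run as an alternative. Positions follow GRCm38. Values of 1 HOX gene and 1 cofactor are not reported here.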

Additional observations from a re-analysis of the deposited data

Results flagged for a closer look

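In AMPK KO cells with MK-8722, Hoxb7 was at 14.2 CPM in replicate 4 and at 16.0 to 16.4 CPM in the other libraries, a gap that just passed the limit of Dixon's test. In AMPK KO cells with torin1, Hoxb13 was at 6.02 CPM in replicate 1 and at 8.18 to 8.58 CPM in the others (gap of 0.844 of the range). These were 2 of 87 sets of 4 libraries examined, and at the 0.05 level of the test chance alone gives such gaps. Neither gene was called in the comparison concerned.

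The torin1 effect differed between the lines for Hoxa3 (AMPK KO minus WT -0.77 on the log2 scale, edgeR adjusted p = 0.03) and for Hoxa7 (0.62, edgeR adjusted p = 0.0076). Hoxa3 lost this call without any 1 of 6 libraries, and Hoxa7 kept it under every alternative run.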

How the results depend on the processing

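Of the 77 called pairs of HOX gene and comparison, 0 reversed over 1279 alternative values, and 31 of these values, in 7 pairs, no longer passed. Requiring at least 10 counts in every library left 8 HOX genes to test, and the calls fell from 19, 20 and 19 to 6, 6 and 6 between the genotypes in DMSO, MK-8722 and torin1, from 6 to 3 for torin1 in WT, from 8 to 2 for torin1 in AMPK KO and from 2 to 1 for the WT passage slope, while MK-8722 in WT went from 1 to 2. Without the low-count filter 37 HOX genes were tested, and 25, 25 and 26 were called between the genotypes in DMSO, MK-8722 and torin1. Of all genes, 31.5%, 32.4% and 30.9% were then called. A fold of at least 1.5 gave 0 calls for MK-8722 in WT, 3 for torin1 in WT and 3 for torin1 in AMPK KO. With the passage block the calls were 3 for MK-8722 in WT, 1 for MK-8722 in AMPK KO, 2 for the MK-8722 difference and 4 for the torin1 difference. The compared libraries alone gave 0 for MK-8722 in WT and 1 in AMPK KO, and DESeq2 gave 2, 1 and, for the MK-8722 difference, 1. The cause of the changes under the passage block, the compared libraries alone and DESeq2 was not tested. Leaving out 1 library gave 19 to 21, 19 to 20 and 19 to 20 calls between the genotypes, 0 to 2 for MK-8722 in WT, 0 in AMPK KO, 6 to 7 for torin1 in WT, 8 to 10 in AMPK KO, 0 to 1 for the MK-8722 difference, 1 to 4 for the torin1 difference and 0 to 2 for the WT passage slope. The fit with the replicate number as a block gave 19, 20, 19, 1, 0, 6, 8, 0 and 2 calls and changed no count. Scaling by library size alone moved the median of all genes by 0.14 on the log2 scale between the genotypes in DMSO and by 0.1 for torin1 in WT, and raised the share of higher genes among all called genes from 54.3% to 67.4% and from 55.8% to 67.5%. Depth limits what can be said of a gene without counts to a floor of 3 counts over a group.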

Other observations

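The Hoxc and Hoxd genes below the detection limit were not wholly empty. Hoxc6 averaged 0.214 CPM under DMSO in AMPK KO (2 to 9 counts over all AMPK KO libraries) and 0 in WT. Hoxd8 averaged 0.0924 CPM in WT under DMSO and 0.304 CPM with torin1, where it held 4 to 15 counts, and 0.188 and 0.0991 CPM in AMPK KO. Hoxd9 averaged 0.0963 CPM in AMPK KO under DMSO and 0.223 CPM with MK-8722. The highest genes of the clusters that a line left near 0 under DMSO were Hoxb9 (0.0285 TPM) and Hoxc12 (0.0278 TPM) in WT, and Hoxc6 (0.258 TPM) and Hoxd8 (0.201 TPM) in AMPK KO. Of these, Hoxb9 alone was tested in the main fit, since the others did not pass the filter on low counts. Without that filter Hoxc4, Hoxc5, Hoxc6, Hoxc9, Hoxd9 and Hoxd10 were also called as higher in AMPK KO under DMSO. Hoxd8 was then called as higher with torin1 in WT. These added calls rest on genes below the detection limit.

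The split of each gene among its annotated transcripts was estimated by Salmon. In WT under DMSO, Hoxa9 was divided among Hoxa9-202 (44.5% of its TPM), Hoxa9-203 (30.1%) and Hoxa9-201 (21.2%), and Hoxa10 among Hoxa10-203 (32.9%), Hoxa10-202 (30.3%) and Hoxa10-201 (29.7%). In AMPK KO under DMSO, Hoxb9-201 made up 84.7% of Hoxb9 and Hoxb2-201 made up 91.9% of Hoxb2. In AMPK KO, where Hoxa9 was low, its split varied widely between libraries, with Hoxa9-203 at 61.5% ± 15.9 under DMSO, 21.8% ± 25.7 with MK-8722 and 42.4% ± 32.2 with torin1 (SD, n = 4).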
